A study of Homo sapiens with 18 samples.

Results

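The nuclear-encoded respiratory chain genes described here are the rows of a deposited gene count table whose symbols name subunits of complexes I to V (NDUFA, NDUFB, NDUFC, NDUFS and NDUFV, SDHA to SDHD, UQCR, COX4 to COX8 with an A, B or C, and ATP5F, ATP5M and ATP5P). Names ending in P and a number, which mark pseudogenes, were left out, and 121 rows were dropped in that way. The rule took 91 of 61267 genes, of which 83 carry the name of a subunit and 8 are antisense, divergent or readthrough transcripts named after one. Complex I had 41 of these genes, complex II 4, complex III 11, complex IV 16 and complex V 19. NDUFA4 and NDUFA4L2 were counted with complex IV, since the NDUFA4 protein is now placed there despite its name. The rule used names only and no measured value. The symbol pattern misses a few subunits, among them COX4I1 and CYC1, and these are given below as a separate list.

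Complexes I and II pass electrons from NADH and succinate to ubiquinone, complex III passes them on to cytochrome c, and complex IV reduces oxygen. Complexes I, III and IV pump protons across the inner mitochondrial membrane, and complex V, the ATP synthase, uses the gradient to make ATP. All subunits of complex II and most subunits of the other complexes are encoded in the nucleus and imported, while the mitochondrial genome encodes core subunits of complexes I, III, IV and V.

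The study used LoVo, an established human colorectal cancer cell line, with either wild-type METTL3 (METTL3 WT) or METTL3 K513R, a mutant with arginine in place of a lysine. METTL3 is the enzyme that writes N6-methyladenosine (m6A) on mRNA. No treatment is given in the labels, which also do not say how the K513R cells were made or whether they come from 1 clone. RNA-seq libraries were stranded and made from rRNA-depleted total RNA, and MeRIP-seq compared poly(A) fragments bound by an anti-m6A antibody (IP) with the same fragments before binding (input). Each genotype had 3 RNA-seq, 3 input and 3 IP libraries, 18 in all, and nothing in the labels tells whether replicates were separate cultures. The p-values below therefore reflect only how these libraries vary, which may be technical.

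Total gene counts were 47105235 to 53795212 per RNA-seq library, and counts in peaks were 2625446 to 6200264 per input and 5905811 to 12491969 per IP library, with the lowest MeRIP totals in K513R. METTL3 RNA stood at 38.4, 40.2 and 39.1 CPM, a gene's counts relative to its library's TMM-scaled sum, in WT and 53.6, 49.2 and 53.1 CPM in K513R, and gene counts do not show the amino acid change. Markers of colorectal epithelium summed to 9507 to 13797 CPM in WT and 2394 to 2572 CPM in K513R, with 10 of 11 detected and CDX1 at 0. KRT8 (8821 ± 1691 to 1915 ± 106 CPM) and KRT18 (2382 ± 520 to 202 ± 16.5 CPM) made up most of that sum, while CDH1 and CLDN4 of the same list rose by 1.04 ± 0.10 and 0.97 ± 0.16. Marker lists of fibroblasts, endothelium, blood, muscle and testis summed to at most 46.0 CPM in any library. The 13 mitochondrially encoded subunit genes summed to 39772 ± 8421 CPM in WT and 2612 ± 816 CPM in K513R (mean ± SD, n = 3 each, here and below). The part of these differences in the results below was not tested.

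Promoter windows of 5 members are shown because they are the start regions of genes described below that moved in opposite directions in RNA-seq, NDUFS6, UQCRH and COX5B lower in K513R and UQCR11 and COX6A1 higher, and because peaks of NDUFS6, UQCRH, COX5B and COX6A1 begin at the base after the window. They are the 250 bases before the RefSeq start, on the gene's strand, from the RefSeq promoter table of GRCh38.p14. Capitals mark GCATGCGC, the core of the site bound by NRF1 (nuclear respiratory factor 1), and CCGGAAG, a core bound by ETS factors such as GABPA, each in either orientation. The windows are chr5:1801157-1801406 (plus strand) for NDUFS6, chr1:46303448-46303697 (plus) for UQCRH, chr19:1605463-1605712 (minus) for UQCR11, chr2:97645812-97646061 (plus) for COX5B and chr12:120437863-120438112 (plus) for COX6A1.
NDUFS6: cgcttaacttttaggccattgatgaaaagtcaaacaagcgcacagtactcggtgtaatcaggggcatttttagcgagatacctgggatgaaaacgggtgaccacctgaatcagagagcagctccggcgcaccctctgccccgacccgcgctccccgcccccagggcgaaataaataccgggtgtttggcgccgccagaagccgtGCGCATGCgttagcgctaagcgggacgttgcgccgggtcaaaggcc
UQCRH: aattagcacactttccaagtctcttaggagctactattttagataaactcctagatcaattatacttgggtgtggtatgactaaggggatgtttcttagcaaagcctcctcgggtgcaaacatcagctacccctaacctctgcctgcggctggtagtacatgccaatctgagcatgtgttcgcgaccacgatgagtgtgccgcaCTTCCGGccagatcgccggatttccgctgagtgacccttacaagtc
UQCR11: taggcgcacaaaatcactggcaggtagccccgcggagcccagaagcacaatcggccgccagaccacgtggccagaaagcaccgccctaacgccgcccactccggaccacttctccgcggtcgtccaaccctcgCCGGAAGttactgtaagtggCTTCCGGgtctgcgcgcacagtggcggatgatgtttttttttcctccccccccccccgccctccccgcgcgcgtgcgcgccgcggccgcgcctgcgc
COX5B: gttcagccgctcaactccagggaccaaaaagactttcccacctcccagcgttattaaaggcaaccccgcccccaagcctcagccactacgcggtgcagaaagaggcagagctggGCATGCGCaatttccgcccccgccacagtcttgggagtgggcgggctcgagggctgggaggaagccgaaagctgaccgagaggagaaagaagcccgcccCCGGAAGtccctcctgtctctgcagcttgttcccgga
COX6A1: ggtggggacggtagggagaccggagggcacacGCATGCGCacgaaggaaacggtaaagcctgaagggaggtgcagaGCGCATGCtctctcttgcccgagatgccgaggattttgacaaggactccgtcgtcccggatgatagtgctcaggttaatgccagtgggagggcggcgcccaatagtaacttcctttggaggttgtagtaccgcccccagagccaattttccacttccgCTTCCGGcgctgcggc

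In these windows NDUFS6 had 1 NRF1 core, beginning 46 bases before the start, and UQCRH had 1 ETS core, also beginning 46 bases before it. UQCR11 had 2 ETS cores, at 117 and 97 bases. COX5B had an NRF1 core at 136 and an ETS core at 37 bases, and COX6A1 had 2 NRF1 cores at 218 and 174 bases and an ETS core at 16 bases before the start. RefSeq promoter windows were found for 72 of the 91 members. The NRF1 core was in the windows of 13 of these 72 (18.1%), against 878 of all 27305 genes in the table (3.22%). The ETS core was in those of 18 members (25.0%), against 10.2% of all genes, and AAGATGGC, a core of the YY1 site searched on both strands, in 2 members (2.78%) against 1.64%. GCATGCGC shares GCATGC with its reverse complement and CCGGAAG can share AAG with AAGATGGC, and the motifs were counted apart, each window once per motif. Among the matched members, 10 of the 42 that were lower in K513R and 1 of the 16 that were higher had the NRF1 core, while the ETS core was in 9 of 42 and 5 of 16. A match is a description of the letters in the window and does not show binding.

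The RNA-seq comparison asked how the RNA of the respiratory chain differs between K513R and WT cells. Of 88 members with enough counts to test, 54 were lower in K513R, 21 were higher and 13 did not pass (edgeR quasi-likelihood test, Benjamini-Hochberg adjusted p under 0.05 over all 30377 genes tested). In this comparison 78.3% of all genes tested passed, 36.9% lower and 41.5% higher, so a call by itself was common. Among the members 61.4% were lower and 23.9% higher. The median log2 fold change of the members was -0.85, against 0.13 over all genes tested. The 3 libraries of one genotype lay wholly on one side of the other 3 in 80 of the 88 members (90.9%), and in 80.3% of all genes tested. In bulk RNA, fewer cells of a type and less RNA per cell cannot be told apart. With upper-quartile scaling the median of all genes moved by 0.26, to 0.39, and that of the members to -0.59, with 49 members lower and 24 higher.

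The 5 complexes differed in how many of their genes were lower. These counts, and those by gene name below, stand beside 36.9% lower and 41.5% higher of all genes tested. Complex I had 30 of 41 lower and 6 higher, with a median log2 fold change of -1.24. Complex V was close to it, with 15 of 19 lower, 3 higher and a median of -1.18. Complex II had 2 of 4 lower and none higher (also 0 at an unadjusted p under 0.05 and by DESeq2), with a median of -0.51. Complex III went the other way, with 7 of 11 higher, 3 lower and a median of 0.81. By subunit names alone it had 6 of 9 higher and 2 lower. CYC1, a complex III subunit that the symbol rule missed, was lower, with a log2 fold change of -0.43. Complex IV was mixed, with 5 of 13 tested higher, 4 lower (30.8%) and a median of -0.29, so its counts lay near the shares over all genes. Its median turned positive (0.46) without the filter on low counts. No test between complexes was made, and the plot of fold changes by complex shows the spread within each.

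**Figure D1:**
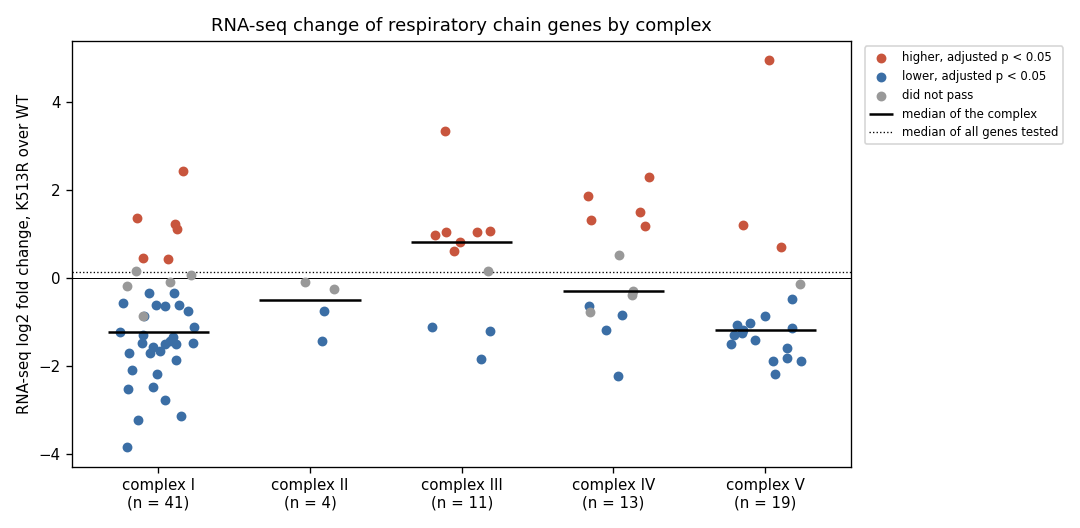
RNA-seq log2 fold change (K513R over WT) of each tested member, by complex; each point is 1 gene, coloured by whether it passed the adjusted p threshold, black bars are medians and the dotted line is the median of all genes tested. Most points of complexes I and V lie below 0, with medians of -1.24 and -1.18, while the median of complex III is 0.81.

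Summed over subunit genes, complex I RNA went from 2165 ± 194 CPM (WT) to 1203 ± 49.1 CPM (K513R). The sum for complex II was 611 ± 59.3 CPM in WT and 381 ± 15.0 CPM in K513R. The WT and K513R libraries did not overlap for either sum. The sums were 644 ± 55.6 and 652 ± 70.5 CPM for complex III and 1594 ± 139 and 1471 ± 62.5 CPM for complex V. For complexes III and V the difference between means was below the WT SD. Of the 18 subunit genes in the complex V sum 14 were lower, while ATP5F1B, the gene with the most CPM in that sum, was higher. The complex IV sum was 1098 ± 97.5 CPM in WT and 1065, 1825 and 1079 CPM in K513R replicates 1 to 3, so replicate 2 stood apart. An exact permutation test cannot go below p = 0.1 with groups of this size, and no p is given for these sums.

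Complex I takes electrons from NADH through its N module, passes them along the Q module to ubiquinone and pumps protons in its membrane arm. NDUFS5, an accessory subunit of the membrane arm on the intermembrane space side (chr1:39026318-39034636), had 318, 332 and 175 CPM in WT and 15.9, 23.2 and 18.3 CPM in K513R. Every K513R library was far below the lowest WT library. It fell by 3.84 ± 0.27 on the log2 scale (SE, here and below; edgeR adjusted p = 7.54e-07), the largest fall among members. NDUFA12, an accessory subunit bound near the base of the N module (chr12:94895297-95003748), had 41.2, 42.3 and 33.3 CPM in WT and 3.95, 4.41 and 4.21 CPM in K513R. The K513R libraries were all lower and close together, and NDUFA12 fell by 3.21 ± 0.13 (edgeR adjusted p = 5.98e-13). NDUFS6, which sits beside NDUFA12 and helps to join the N module to the rest (chr5:1801407-1816048), had 148, 144 and 97.1 CPM in WT and 14.0, 17.5 and 12.7 CPM in K513R. The groups did not overlap, and NDUFS6 fell by 3.14 ± 0.17 (edgeR adjusted p = 1.18e-10). NDUFS4, the third accessory subunit of that region and a gene mutated in Leigh syndrome (chr5:53560633-53683338), had 25.9, 25.8 and 26.2 CPM in WT and 3.53, 3.83 and 4.07 CPM in K513R. It fell by 2.77 ± 0.12 (edgeR adjusted p = 1.48e-12).

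All 11 NDUFB genes, whose products lie in the membrane arm, were lower in K513R, with log2 fold changes from -2.10 (NDUFB10, 137 ± 18.3 to 32.1 ± 6.16 CPM) to -0.34 (NDUFB5, 25.0 ± 3.42 to 19.8 ± 2.06 CPM). Of all genes tested 36.9% were lower. Reads of NDUFB8 may be shared, because 48.5% of its exonic length overlaps other genes. The sources used here do not say whether counting used the strand. The same limit holds for other members, among them NDUFS7 (51.45%), NDUFB2 (35.9%), NDUFA7 (32.5%), NDUFV2 (28.4%) and ATP5F1E (23.2%). Among the 8 NDUFS genes 6 were lower and 1 was higher. NDUFS3, a core subunit of the Q module, was the one that rose, by 0.44 ± 0.10, from 33.9 ± 2.09 to 45.9 ± 0.594 CPM. NDUFS1, the largest core subunit and part of the N module, did not pass, with 197, 206 and 221 CPM in WT and 216, 239 and 235 CPM in K513R.

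The 3 NDUFV genes, all of the N module, split. NDUFV2, which holds an iron-sulfur cluster, fell by 2.48 ± 0.11, from 60.3 ± 1.80 to 10.8 ± 1.08 CPM, and NDUFV3, an accessory subunit, fell by 1.47 ± 0.12. NDUFV1, which binds NADH and flavin (chr11:67605653-67612554), had 124, 130 and 155 CPM in WT and 361, 337 and 356 CPM in K513R. All 3 K513R libraries were above every WT library, and NDUFV1 rose by 1.36 ± 0.11 (edgeR adjusted p = 5.08e-09). Of the NDUFA genes, which are accessory subunits, 7 of 13 were lower and 3 higher, counting NDUFA4. NDUFA6 fell by 2.52 ± 0.29, with a WT spread of 77.7 to 164 CPM. NDUFA2 rose by 1.12 ± 0.13, from 6.96 ± 0.571 to 15.1 ± 1.97 CPM, and NDUFA7 by 0.46 ± 0.13. NDUFA10, NDUFA1 and NDUFA3 did not pass, with log2 fold changes of -0.18, -0.10 and 0.07.

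**Figure D2:**
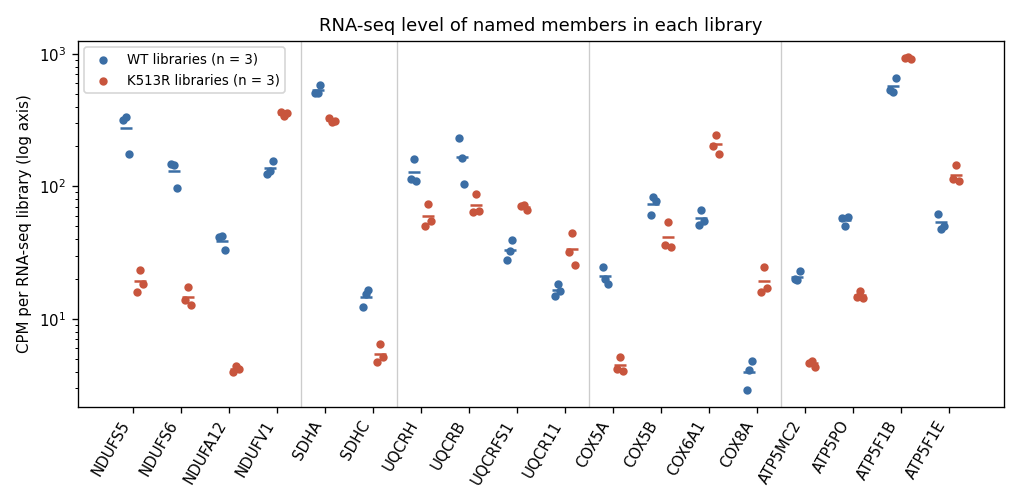
CPM per RNA-seq library on a log axis for 18 named members; points are libraries (3 WT, 3 K513R), short bars are means, and grey lines separate complexes I to V. NDUFS5, NDUFS6 and NDUFA12 lie far lower in every K513R library, while NDUFV1, UQCRFS1, COX6A1 and COX8A lie higher in every one.

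Complex II is also the citric acid cycle enzyme succinate dehydrogenase. SDHA, its flavoprotein (chr5:218303-257082), had 502, 503 and 584 CPM in WT and 328, 303 and 312 CPM in K513R. The groups did not overlap, and SDHA fell by 0.75 ± 0.11 (edgeR adjusted p = 6.59e-06). SDHC, a membrane anchor (chr1:161314381-161363206), had 12.3, 15.4 and 16.6 CPM in WT and 4.74, 6.49 and 5.14 CPM in K513R, and fell by 1.43 ± 0.15. SDHB, the iron-sulfur subunit (chr1:17018664-17054032), had 47.8, 48.2 and 61.7 CPM in WT and 52.8, 46.7 and 48.6 CPM in K513R. Its groups overlapped and it did not pass (log2 fold change -0.09 ± 0.12, edgeR adjusted p = 0.481). SDHD, the other anchor (chr11:112086824-112120016), had 12.7, 12.5 and 16.7 CPM in WT and 11.5, 11.6 and 11.9 CPM in K513R. It did not pass (log2 fold change -0.26 ± 0.13, edgeR adjusted p = 0.0794), but passed without WT replicate 1 (-0.37) or WT replicate 2 (-0.39), with library size scaling (-0.34) and without the low-count filter (-0.33).

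Complex III holds the Rieske protein, cytochromes b and c1, core proteins and small subunits. UQCRFS1, the Rieske iron-sulfur protein (chr19:29205320-29213151), had 27.9, 32.6 and 39.1 CPM in WT and 71.2, 71.8 and 66.4 CPM in K513R. Every K513R library was above every WT library, and UQCRFS1 rose by 1.07 ± 0.12 (edgeR adjusted p = 2.58e-07). The small subunit genes UQCR10 and UQCR11 rose by 1.05 ± 0.19 and 1.04 ± 0.17, and that of another small subunit, UQCRQ, by 0.61 ± 0.14. Of the core proteins, UQCRC2 rose by 0.81 ± 0.11, from 63.2 ± 8.46 to 111 ± 4.52 CPM, while UQCRC1 did not pass (154 ± 10.6 and 171 ± 0.0607 CPM). UQCRH, the hinge protein that docks cytochrome c (chr1:46303698-46316776), had 114, 161 and 110 CPM in WT and 50.1, 73.6 and 54.7 CPM in K513R. It fell by 1.11 ± 0.16 (edgeR adjusted p = 1.84e-05). UQCRHL, a near-identical copy of UQCRH elsewhere on the same chromosome, rose by 0.96 ± 0.18, from 12.5 ± 3.57 to 24.3 ± 4.44 CPM, and since reads of the pair could have been split between them both values are uncertain. UQCRB, a ubiquinone-binding subunit, had 232, 163 and 104 CPM in WT and 63.6, 87.1 and 65.5 CPM in K513R. Its groups did not overlap, though the WT spread was wide, and it fell by 1.21 ± 0.28 (edgeR adjusted p = 0.00477).

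Complex IV, cytochrome c oxidase, has core subunits from the mitochondrial genome and a ring of nuclear-encoded subunits, several with tissue-restricted isoforms. COX5A (chr15:74919791-74938083), a matrix-side subunit, had 24.6, 20.0 and 18.3 CPM in WT and 4.20, 5.18 and 4.07 CPM in K513R. The groups were far apart, and COX5A fell by 2.22 ± 0.15 (edgeR adjusted p = 1.98e-10). COX6B1, on the intermembrane space side, fell by 1.19 ± 0.16, COX5B, which binds zinc, by 0.84 ± 0.16, and COX7B by 0.65 ± 0.15. COX6A1 (chr12:120438090-120440737), the common form of subunit VIa, had 51.5, 65.9 and 54.9 CPM in WT and 201, 244 and 176 CPM in K513R. It rose by 1.85 ± 0.13 (edgeR adjusted p = 6.89e-10), with no overlap between groups. COX8A (chr11:63974620-63976543) had 2.91, 4.13 and 4.83 CPM in WT and 16.1, 24.8 and 17.1 CPM in K513R. It rose by 2.29 ± 0.20 (edgeR adjusted p = 3.55e-08), and 35.4% of its exonic length overlaps other genes. NDUFA4 rose by 1.50 ± 0.15, from 8.04 ± 0.870 to 22.8 ± 4.71 CPM, and its relative NDUFA4L2 by 1.18 ± 0.14, from 5.44 ± 0.583 to 12.3 ± 1.25 CPM.

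The tissue-restricted isoforms were low. COX6B2, known from testis, rose by 1.31 ± 0.27 but only from 0.920 ± 0.0830 to 2.29 ± 0.715 CPM. COX7A1, known from muscle, stood at 0.352 ± 0.00561 CPM in WT against 0.207 ± 0.0928 CPM in K513R and did not pass. COX6A2, the muscle form of subunit VIa, had 0 counts in all 6 libraries, where 3 counts would be 0.0558 to 0.0637 CPM. COX7B2 and COX8C had too few counts to test. COX7C, COX6C and COX7A2 did not pass either. COX6C had 424, 505 and 357 CPM in WT and 445, 919 and 496 CPM in K513R, with K513R replicate 2 far above the rest. COX7C had 411, 426 and 436 CPM in WT and 286, 478 and 277 CPM in K513R, and without K513R replicate 2 it passed with a log2 fold change of -0.59. COX7A2 passed without WT replicate 3, with a log2 fold change of -0.67. With all libraries kept, both also passed with library size scaling (COX7C -0.39, COX7A2 -0.47) and without the low-count filter (-0.36 and -0.46).

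Complex V consists of the catalytic F1 head, the membrane rotor and the peripheral stalk. The rotor ring is built from 1 protein encoded by 3 genes, ATP5MC1, ATP5MC2 and ATP5MC3. ATP5MC2 (chr12:53632726-53677408) had 19.8, 19.7 and 22.8 CPM in WT and 4.63, 4.85 and 4.37 CPM in K513R. The groups did not overlap, and ATP5MC2 fell by 2.17 ± 0.13 (edgeR adjusted p = 3.99e-11). ATP5MC3 fell by 1.40 ± 0.14, from 18.5 ± 2.13 to 6.98 ± 1.25 CPM. ATP5MC1, the third gene, stood at 5.08 ± 0.729 CPM in WT against 4.59 ± 0.305 CPM in K513R and did not pass. All 4 ATP5P genes, which encode the peripheral stalk, were lower, against 36.9% of all genes tested. ATP5PO, the stalk's link to the F1 head, had 58.2, 50.5 and 59.1 CPM in WT and 14.7, 16.3 and 14.4 CPM in K513R, and fell by 1.89 ± 0.11 (edgeR adjusted p = 4.37e-11). ATP5PF fell by 1.81 ± 0.11, although 37.3% of its exonic length is shared, mostly with GABPA.

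Of the 5 ATP5F1 genes of the head and central stalk, 3 were lower and 2 higher. The alpha subunit gene ATP5F1A fell by 1.03 ± 0.12, from 219 ± 34.5 to 107 ± 1.05 CPM. ATP5F1B, the catalytic beta subunit with which alpha forms the hexamer (chr12:56638175-56645984), had 532, 519 and 654 CPM in WT and 929, 941 and 914 CPM in K513R. It rose by 0.71 ± 0.12 (edgeR adjusted p = 2.72e-05), and the groups did not overlap. ATP5F1E, the epsilon subunit, rose by 1.20 ± 0.13, from 53.5 ± 7.48 to 122 ± 18.6 CPM. ATP5F1C and ATP5F1D, the gamma and delta subunits, fell by 1.08 ± 0.12 and 1.50 ± 0.13. ATP5MGL, an intronless relative of ATP5MG, rose by 4.95 ± 0.34, but from 0.149, 0.0432 and 0.119 CPM in WT to 3.61, 3.02 and 3.43 CPM in K513R, and the WT value rests on 16 counts in all.

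The 8 names that are not subunits included both directions. UQCRFS1-DT, named as the divergent transcript of UQCRFS1, rose by 3.34 ± 0.20, from 0.608 ± 0.0579 to 6.16 ± 0.548 CPM. NDUFV1-DT rose by 2.42 ± 0.30 and NDUFV2-AS1 by 1.23 ± 0.17. UQCRFS1 and NDUFV1, the genes beside the first pair, were also higher, while NDUFV2 was lower. UQCRB-AS1 fell by 1.84 ± 0.48 and NDUFB2-AS1 by 1.11 ± 0.13, and UQCRB and NDUFB2 were lower too. Since the strand setting of the counting is not given, reads of an antisense gene and of a gene that overlaps it on the other strand may not have been told apart, and these values are uncertain. The readthrough names ATP5MF-PTCD1 (-1.89) and NDUFC2-KCTD14 (-0.62) were lower, but 93.4% and 99.6% of their exonic length is shared with the genes they join. NDUFA6-DT did not pass.

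Per kilobase of merged exons, which allows levels to be set beside each other, NDUFS5 was the highest member in WT at 502 CPM per kb, followed by ATP5F1B at 254, COX7C at 215, COX6C at 158 and NDUFS6 at 146 CPM per kb. In K513R the order was ATP5F1B at 415, COX6C at 229, COX7C at 176 and COX6A1 at 155 CPM per kb, and NDUFS5 stood at 35.0 CPM per kb. In WT the COX6C and NDUFS6 libraries overlapped, and in K513R those of COX6C, COX7C and COX6A1 did, so the order among these is not given by the data. Merged exons of genes with many isoforms overstate the transcript length, so these levels understate such genes. Across the 88 members the RNA-seq log2 fold change had a Spearman correlation of -0.02 with exonic length, against -0.11 over all 30377 genes tested. The genes share their libraries, and no p is given.

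Within K513R, replicate 2 had the highest CPM of the 3 libraries in 62 of 88 members (70.5%), against 36.4% of all genes tested. WT showed no such pattern, with replicates 1 to 3 highest in 24, 32 and 32 members. Without K513R replicate 2 the count was 56 lower and 21 higher, and the median of complex V was -1.30.

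The rest of the respiratory chain was described with lists chosen by function. The counts below stand beside 36.9% lower and 41.5% higher of all genes tested in RNA-seq. Of 7 tested subunits that the symbol rule missed and cytochrome c, 6 were lower and none higher (also 0 at an unadjusted p under 0.05 and by DESeq2), among them ATP5IF1, the inhibitor of the ATP synthase (207 ± 58.6 to 49.6 ± 12.8 CPM), NDUFAB1, and COX4I1, which fell by 1.13 ± 0.12. All 13 mitochondrially encoded subunits were lower, with a median log2 fold change of -4.68, from -6.14 (MT-ND2) to -0.90 (MT-CYB). Assembly factors did not move one way: complex I had 8 higher and 4 lower of 17, complex II 0 (also unadjusted) and 1 of 4, complex III 3 and 3 of 6, complex IV 5 and 12 of 23, and complex V 2 and 3 of 5. NDUFAF2, an assembly factor related to NDUFA12, fell by 2.88 ± 0.22, and NDUFAF3 rose by 1.94 ± 0.13. UQCC3 rose by 2.13 ± 0.12 and UQCC2 fell by 2.64 ± 0.11, both factors for cytochrome b of complex III. COX17, a copper chaperone, fell by 1.80 ± 0.21, and COX10, which makes heme for complex IV, by 1.53 ± 0.19. ATPAF1, a chaperone of the F1 head, rose by 2.01 ± 0.11. Among 12 regulators of mitochondrial genes, 11 were lower and 1 was higher. PPARGC1B, a coactivator of NRF1 and ESRRA, fell by 2.84 ± 0.12, and TFB1M by 1.94 ± 0.14, while TFAM, which packages mitochondrial DNA, rose by 0.72 ± 0.13.

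The MeRIP input libraries give a second measure of RNA, from poly(A) RNA and only over genes with peaks. Of 46 members tested, 20 were lower in K513R, 2 higher and 24 did not pass, while 27.1% of all 8603 genes tested passed, 13.6% lower and 13.5% higher. Lower calls thus made up 43.5% of the members, and the median log2 fold change of the members was -0.38 against 0.01 over all genes. Complex I had 13 of 22 lower and 1 higher, complex II 1 of 2 lower, complex III 3 of 7 lower and 1 higher, complex IV 2 of 7 lower and complex V 1 of 8 lower. The higher count fell to 1 without WT replicate 1, 2 or 3, or without K513R replicate 2 or 3.

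NDUFB8 had 84.5, 114 and 92.5 CPM of input in WT and 45.2, 36.6 and 31.7 CPM in K513R. The groups did not overlap, and NDUFB8 fell by 1.33 ± 0.16 in input (edgeR adjusted p = 1.62e-05). NDUFB10 had 535, 526 and 489 CPM in WT and 297, 239 and 278 CPM in K513R inputs, and fell by 0.93 ± 0.10 (edgeR adjusted p = 6.62e-06). UQCRB fell by 0.93 ± 0.10, from 1166, 1205 and 1028 to 679, 545 and 559 CPM. NDUFS5, the largest fall in RNA-seq, had 725, 817 and 709 CPM in WT and 540, 424 and 431 CPM in K513R inputs. It also fell here, by 0.69 ± 0.11 (edgeR adjusted p = 0.000198). NDUFA12 had 206, 206 and 191 CPM in WT and 169, 178 and 181 CPM in K513R inputs and did not pass (edgeR adjusted p = 0.142). UQCRFS1 had 100, 96.2 and 92.8 CPM in WT and 128, 130 and 140 CPM in K513R inputs. It rose by 0.45 ± 0.10, so it was higher in both assays.

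By their calls, 15 members were lower in both assays: ATP5F1D, COX7B, NDUFA5, NDUFA8, NDUFB6, NDUFB8, NDUFB10, NDUFC1, NDUFS5, NDUFS6, NDUFV2, NDUFV3, SDHA, UQCRB and UQCRH. UQCRFS1 was higher in both. NDUFA2 and UQCRHL were higher in RNA-seq and lower in input, and NDUFB2 was lower in RNA-seq and higher in input. The input call of SDHA was lost with DESeq2 and library size scaling, and without WT replicate 2 or 3 or K513R replicate 2 or 3 (-0.70 to -0.55). That of NDUFB2 was lost without any 1 WT replicate or K513R replicate 2 or 3 (0.54 to 0.94), and that of NDUFA2 without WT replicate 2 (-1.14). Across the 46 members the fold changes of the 2 assays had a Spearman correlation of 0.26, and across 8506 genes 0.31, with no p given.

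The difference between the assays was tested in 1 model of RNA-seq and input libraries with an assay by genotype term. It passed in 34 of 46 members, 18 with the RNA-seq change above the input change and 16 below it, while 64.1% of all 8506 genes passed, 30.9% above and 33.2% below. In complex III 5 of 7 were above and none below (also 0 at an unadjusted p under 0.05), and in complex V 2 of 8 were above and 5 below. NDUFA2 differed most on one side, by 2.90 ± 0.36 (edgeR adjusted p = 6.69e-07), followed by COX6A1 with 2.42 ± 0.20. The NDUFA2 input was low, with 73, 77 and 53 counts in WT and 32, 20 and 4 in K513R, all from 1 peak. COX6A1 had 46.5, 47.0 and 44.6 CPM in WT and 45.9, 44.1 and 36.4 CPM in K513R inputs, so its rise in RNA-seq was not seen there. On the other side NDUFS5 differed by -2.69 ± 0.26 and NDUFA12 by -2.56 ± 0.16. Total RNA and poly(A) RNA, library kit and counted regions also differ between the assays and cannot be told apart from one another here.

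**Figure D3:**
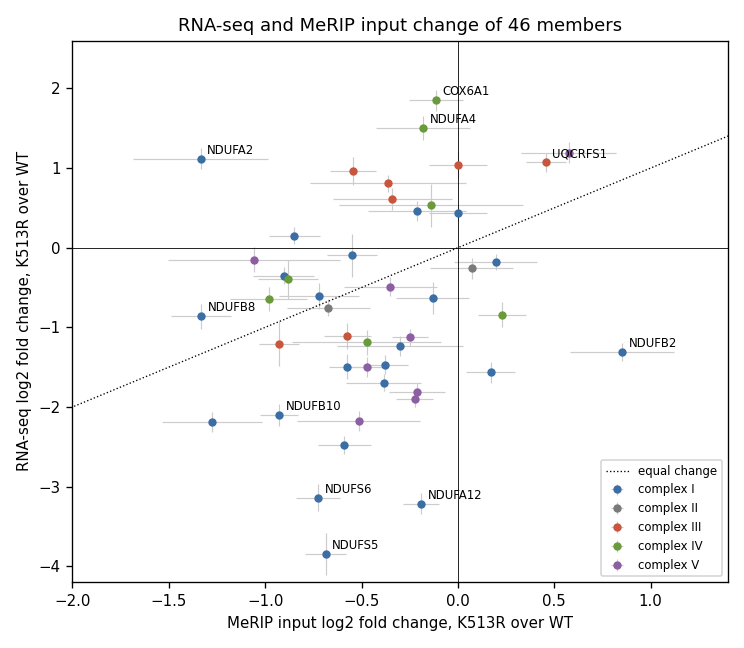
Log2 fold change (K513R over WT) in RNA-seq, vertical, against that in MeRIP input, horizontal, for 46 members; grey bars are standard errors, colours mark the complexes and the dotted line marks equal change. NDUFS5, NDUFA12 and NDUFS6 lie far below the dotted line, and NDUFA2, COX6A1 and NDUFA4 far above it.

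The last comparison asked how m6A enrichment, the IP signal over input, differed between the genotypes in the members. The deposited peak table held 159 peaks over exons of members on the gene's own strand, in 62 members. A peak was found in 70.5% of the members tested in RNA-seq, against 37.4% of all genes tested. These 2 shares were not matched for RNA level: 86 of 88 members but 20471 of 30377 genes remained at a mean of at least 1 CPM. Members without a peak included NDUFV1, SDHC, COX5A, COX8A, ATP5F1B and ATP5PO. The median fold enrichment of the members' tested peaks in the authors' deposited table was 2.96, against 3.92 over all tested peaks. Of 127 peaks tested, 47 in 23 genes were higher in K513R and 3 in 2 genes were lower, by the genotype by IP term of edgeR. In this comparison 22.6% of all 27252 peaks passed, 13.0% higher and 9.61% lower, and the members' higher share was 37.0%. The median log2 difference was 0.70 for the members and -0.05 over all peaks tested. WT and K513R peaks were listed separately and overlap, and with 1 peak per stretch 25 of 66 were higher and 2 lower, with a median of 0.71. The number of calls depended on single libraries: without WT replicate 1, 2 or 3 or K513R replicate 2 it was 20, 18, 22 or 28 higher, and 4.19%, 4.89%, 4.50% or 6.83% of all peaks were then higher. Without WT replicate 2 or 3 or K513R replicate 2, 1 peak was lower, and without K513R replicate 3, 5 were. The median stayed between 0.58 and 0.73 when any 1 replicate was left out. With library size scaling, which moved the median of all peaks by -0.22, 22 peaks were higher and 4 lower, with a median of 0.46. Of all peaks 6.65% were then higher and 14.4% lower.

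The input libraries enter both this comparison and the input comparison, so a lower input and a higher enrichment of the same gene are not independent. NDUFS5, for example, fell by 0.69 in input, and its enrichment rose by 0.93. Higher calls were found in 21 of 60 tested peaks of complex I, 2 of 4 of complex II, 14 of 23 of complex III, 8 of 15 of complex IV and 2 of 25 of complex V. Lower calls were 1 in complex III and 2 in complex V. Of all tested peaks 13.0% were higher and 9.61% lower. Some of the member peaks overlap, and the 14 of complex III lay in 4 genes. With 1 peak per stretch, 13 of 36, 1 of 2, 5 of 10, 4 of 8 and 2 of 10 tested peaks of complexes I to V were higher. The peaks were also counted by position, a split chosen after seeing the data. Of 41 tested peaks that cover any of the first 50 exonic bases of a member 21 were higher and none lower (also 0 at an unadjusted p under 0.05), with a median of 0.89, while 30.7% of all such peaks were higher and 2.78% lower, with a median of 0.72. Of the 86 peaks elsewhere 26 were higher and 3 lower, with a median of 0.63, while 11.0% of all such peaks were higher and 10.4% lower, with a median of -0.13. Peaks weaker than typical, with a mean log2 IP over input below 0, had 28 of 65 higher and 3 lower in the members, against 19.8% and 12.1% of all such peaks. Stronger ones had 19 of 62 higher and none lower by edgeR (4 lower at an unadjusted p under 0.05), against 8.81% and 8.06%.

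**Figure D4:**
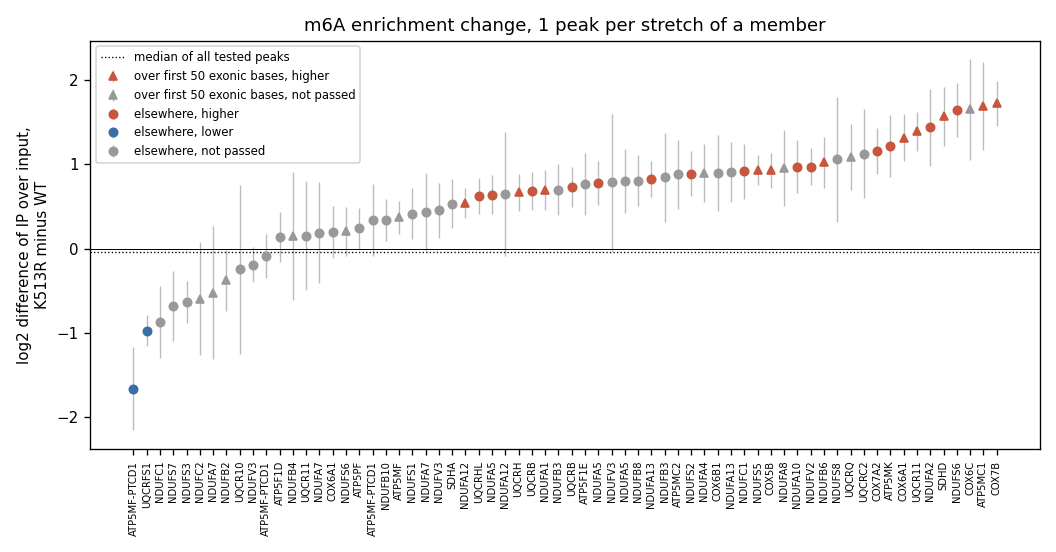
Log2 difference of IP over input (K513R minus WT) for 1 peak per stretch of each member, in order of the difference; bars are standard errors, triangles cover any of the first 50 exonic bases, red passed as higher and blue as lower, and the dotted line is the median of all tested peaks. Of 66 peaks 25 passed as higher and 2 as lower.

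For single peaks, enrichment is log2 IP over input from CPM with 0.5 added, so that a negative value is weaker than typical of tested peaks and not IP below input. COX7B had its peak at the gene's 5' end (chrX:77899440-77901800), with values of -0.84, -0.29 and -0.44 in WT and 0.74, 1.20 and 1.66 in K513R. The groups did not overlap, and the enrichment rose by 1.72 ± 0.26 (edgeR adjusted p = 0.00046). The NDUFS6 peak near the 3' end (chr5:1814661-1816048) had -1.12, -1.64 and -1.04 in WT and 0.28, 0.20 and 0.75 in K513R. It rose by 1.64 ± 0.31 (edgeR adjusted p = 0.00182), while NDUFS6 RNA was lower in both assays. SDHD had the highest WT values among COX7B, NDUFS6, SDHD and UQCR11, at 0.89, 0.50 and 1.03, with 1.85, 2.03 and 2.96 in K513R, at its first exon (chr11:112086824-112087961). It rose by 1.57 ± 0.35 (edgeR adjusted p = 0.00434). UQCR11 (chr19:1599440-1605445, a span that includes introns) had 0.09, 0.48 and 0.25 in WT and 1.14, 1.81 and 2.04 in K513R. The difference was 1.39 ± 0.23 (edgeR adjusted p = 0.000753), with no overlap.

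Some peaks at the start were also higher, in genes whose RNA-seq changed in opposite directions. Not all such peaks passed: of 41 tested over the first 50 exonic bases 21 were higher. In the authors' deposited table the UQCRH peaks (0.45 and 0.44) had an FDR above 0.05. So did the NDUFS6 peaks other than those near its 3' end (-0.05 and 0.36). The COX6A1 peak (chr12:120438113-120438441) begins at the base after the promoter window shown above, and had -0.57, -0.72 and -0.67 in WT and 0.14, 0.37 and 1.33 in K513R. All K513R values were higher, and the enrichment rose by 1.31 ± 0.28 (edgeR adjusted p = 0.00307). The COX5B peak (chr2:97646062-97646338), which also begins at the base after its window, had -0.73, -0.37 and -0.49 in WT and 0.32, 0.41 and 0.40 in K513R. It rose by 0.93 ± 0.21, a call that was lost without WT replicate 1 (0.82). The NDUFS5 peak from the first exonic base (chr1:39026318-39028868) had -0.68, -0.67 and -0.54 in WT and 0.24, 0.36 and 0.32 in K513R. It rose by 0.93 ± 0.18 (edgeR adjusted p = 0.00201), and the replicates of each genotype were close together. ATP5MC1 had a difference of 1.69 ± 0.52, but K513R values of 0.27, 3.42 and 0.81, and its call was lost without K513R replicate 2 (1.02) or any 1 of the WT replicates (1.59 to 1.86). COX6C had K513R values of -1.10, 1.28 and 1.58 at its first exon and did not pass.

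UQCRFS1, higher in both RNA measures, had lower enrichment. Its input was counted over 1 peak and also enters the enrichment, so the higher input and the lower enrichment are not independent. The UQCRFS1 peak inside the gene (chr19:29207417-29208016) had -0.03, -0.23 and -0.09 in WT and -1.04, -1.14 and -1.07 in K513R. The groups did not overlap, and the enrichment fell by 0.97 ± 0.18 (edgeR adjusted p = 0.0015). A second UQCRFS1 peak, from the K513R list, overlaps it and did not pass (-0.12). The other 2 lower peaks lie in ATP5MF-PTCD1 and overlap each other; they are shared with PTCD1, and the one with more counts differed by -1.66 ± 0.49, a call lost without WT replicate 2 or 3 or K513R replicate 2 or 3 (-1.77 to -1.23).

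**Figure D5:**
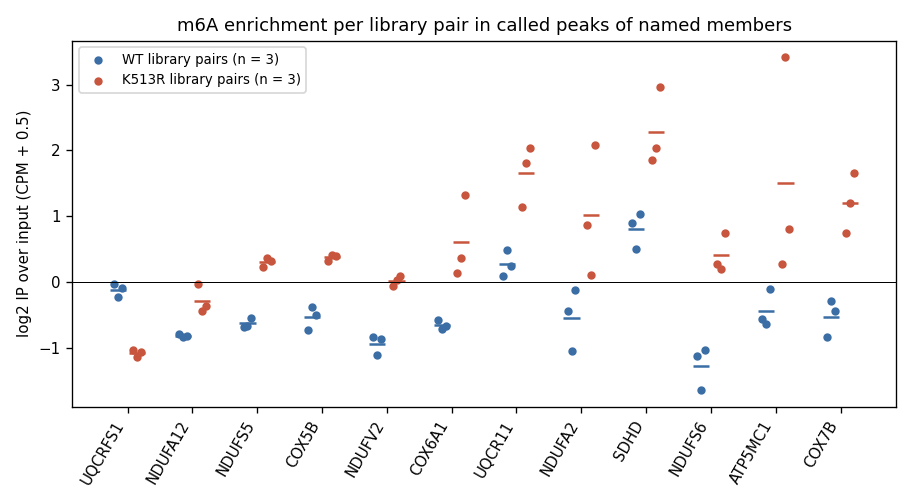
Log2 IP over input (CPM with 0.5 added) for each pair of IP and input libraries in 12 called peaks of named members; points are library pairs (3 WT, 3 K513R) and short bars are means. UQCRFS1 is the one gene shown whose K513R values, -1.04 to -1.14, lie below its WT values.

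In the authors' deposited table, their own comparison of the genotypes had 36 of the 159 member peaks higher and 7 lower in K513R at an FDR under 0.05. The same share over all deposited peaks is not given here, so these counts describe the member peaks only. For the peaks described above, the authors' deposited table gives a log2 difference of 1.56 for COX7B, 1.45 for NDUFS6, 1.37 for SDHD, 1.21 for UQCR11, 1.13 for COX6A1 and -1.20 for UQCRFS1. Their lower peaks also included NDUFS3 peaks (-0.84 to -0.76), while the edgeR fit here called no complex I peak lower. The COX6C peak, which did not pass here, had 1.51 there and was higher at that FDR. The 2 comparisons thus differed in their calls for these genes, and a peak that did not pass is not shown to be unchanged. The main fit here did not pair the input and IP of one library. With that block 8 member peaks were lower, against 3 in the main fit, beside 12.7% and 9.61% of all peaks.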

How the data were processed

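RNA-seq and MeRIP-seq libraries were grouped by the deposited labels. Per the submitters' processing notes, Trimmomatic 0.36, featureCounts of Subread 1.5.1, bedtools, deepTools and edgeR 3.12.1 were used with GRCh38, and sources used here do not name an aligner or peak caller. The authors deposited raw counts per gene and raw counts per peak, and, per the file headers, a fold enrichment (ratio of IP over input), a p-value and FDR for each peak, and a log2 difference between genotypes with its p-value and FDR.

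The members and lists were chosen with earlier results of these data known. The quasi-likelihood test of edgeR 4.0.16 (R 4.3.3, two-sided, robust, with TMM factors after filterByExpr) was run over all genes or peaks, with an adjusted p under 0.05 as threshold. Input counts were summed per gene over non-overlapping peaks. Peaks were tested by the genotype by IP interaction, with TMM within IP and within input. Peak starts were read as 0-based, since 1878 begin 1 base before an exon and 94 at one. Coefficients of variation between replicates were 13.7% (RNA-seq), 10.5% (inputs) and 15.2% (peaks), and the fits were tested on simulated data. Replicate numbers were not treated as pairs, and the main peak test did not pair the input and IP of one library.

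In each complex the text names the 3 largest rises and falls with a mean of at least 5 CPM, the highest member per kb, all SDH genes, the tissue-restricted isoforms with their partners, the ATP5MC genes, members with tested peaks and non-subunit names. Other members were named after their values were seen. Alternatives were other scalings and filters, DESeq2 1.42.0, limma 3.58.1 (voom), a replicate block, subsets of peaks and leaving out each replicate. No genome was used, so no peak sequence is shown.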

Additional observations from a re-analysis of the deposited data

Results flagged for a closer look

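The change between genotypes differed between RNA-seq and MeRIP input in 4 members that stood farthest apart by the assay by genotype term of edgeR. NDUFA2 differed by 2.90 ± 0.36 on the log2 scale (adjusted p = 6.69e-07), with 1.12 in RNA-seq and -1.33 in input. Its input value rests on few counts, 73, 77 and 53 in WT and 32, 20 and 4 in K513R. COX6A1 differed by 2.42 ± 0.20 (adjusted p = 1.89e-09), with 1.85 in RNA-seq and -0.12 in input. NDUFS5 differed by -2.69 ± 0.26 (adjusted p = 1.88e-08), with -3.84 and -0.69. NDUFA12 differed by -2.56 ± 0.16 (adjusted p = 3.9e-11), with -3.21 and -0.19. The 4 calls held when any 1 replicate was left out. Groups of 3 libraries are too small for a test of single outlying libraries, so none was made.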

How the results depend on the processing

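In RNA-seq the members' counts of 54 lower and 21 higher stayed within 1.5 times under every alternative, with 49 to 57 lower and 18 to 24 higher, and leaving out 1 replicate gave 53 to 56 lower and 21 to 22 higher. Medians moved beyond the spread between libraries with upper-quartile factors (members -0.59, complex I -0.97, complex II -0.24, complex V -0.91) and without the 7SL, 7SK and mitochondrial genes (members -0.67, complex V -0.99), which shift all genes by 0.26 and 0.21. With a mean of at least 1 CPM the median of complex V was -1.05 and that of complex IV turned to 0.25, and without the low-count filter that of complex IV was 0.46, since other genes enter it. Counting NDUFA4 and NDUFA4L2 with complex I left complex IV with 3 higher. Leaving out 1 replicate gave medians of -1.30 to -1.12 for complex V. SDHB (0.17, 0.087 and 0.036), ATP5MC1 (0.12 and 0.029) and SDHD (0.0065) turned positive under some of these scalings or filters, without passing, and COX6A1 in input was 0.0070 with library size.

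In inputs, leaving out 1 replicate gave 1 to 3 higher and 16 to 23 lower. For peaks it gave 18 to 54 higher, 1 to 5 lower and medians of 0.58 to 0.73. With library size 22 were higher, with a median of 0.46, while 6.65% of all peaks were higher. Keeping the stronger peaks by the authors' score (above the median) left 34 peaks tested, 12 higher and 1 lower, with a median of 0.96. Peaks with at least 50% of their length in exons numbered 75, with 24 higher and 1 lower, and 1 peak per stretch, chosen after seeing the data, gave 25 higher. Fewer peaks enter these 3 counts. Causes of the other shifts were not tested.

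Replicate numbers did not pair WT with K513R libraries: deviations of same-numbered libraries correlated by -0.02, 0.09 and 0.02 in RNA-seq and -0.12, -0.05 and 0.01 in inputs. The input and IP of one number were not checked in this way. With the replicate block COX7C (-0.34) and COX7A2 (-0.35) passed in RNA-seq and SDHA (-0.67) did not pass in inputs. With it 56 members were lower and 22 higher in RNA-seq, against 36.3% and 40.8% of all genes. In inputs the replicate block gave 19 lower and 2 higher, against 11.8% and 11.3% of all genes. With input and IP of one library as a block 59 peaks were higher and 8 lower, against 16.9% and 12.7% of all peaks. Low depth in K513R inputs limits the peak values, and 32 of 159 member peaks were too low to test.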

Other observations

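Of 121 pseudogene names of the members, 14 had enough RNA-seq counts to test, of which 4 were higher and 6 lower in K513R. Of all genes tested 41.5% were higher and 36.9% lower, so these counts show nothing particular to the pseudogenes. They summed to 7.73 ± 0.614 CPM in WT and 10.0 ± 0.461 CPM in K513R. NDUFB4P8 had 2, 0 and 0 counts in WT and 48, 57 and 43 in K513R, while its parent NDUFB4 fell by 1.34 ± 0.20. NDUFA3P6 had 0 counts in all 3 WT libraries and 23, 15 and 12 in K513R, while NDUFA3 did not pass. Both NDUFS5 copies tested, NDUFS5P1 (39, 26 and 25 counts in WT, 6, 2 and 8 in K513R) and NDUFS5P2 (24, 28 and 12 in WT, 0, 4 and 0 in K513R), were lower, as was NDUFS5, and reads of such copies could have been split with the parent gene.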
